A study of Rattus norvegicus with 12 samples.

Results

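Kidneys of obese, diabetic ZSF1 rats given a soluble guanylate cyclase (sGC) activator were compared with those of obese rats given an sGC stimulator, by single-nucleus RNA sequencing. The sGCact and sGCstim groups make up 6 of the 12 sequenced rats, 3 in each, and 101228 of the 217132 nuclei in the deposited table. Rats were chosen by the group name beside each nucleus in that table. The question was whether the drugs left the kidney with different mixtures of cell states within each cell type, or with nuclei of different quality. All rats were male and of the ZSF1 strain (ZSF1-LeprfaLeprcp/Crl), in which mutations of the leptin receptor gene cause obesity, diabetes and kidney disease, so a drug is seen here on 1 genetic background and in 1 sex. Treatment of the obese rats began at 13 to 14 weeks of age and lasted 12 weeks. The sGCact was runcaciguat (BAY 1101042), of which rats received 3 mg/kg 2 times daily. BAY 1165747, the sGCstim, was given 1 time daily at 3 mg/kg. Each daily total therefore differed as well as the drug, and effects of drug and daily dose cannot be told apart. The other 6 rats were 3 obese rats on vehicle and 3 untreated lean rats, which show the background level of each measure. Each of the obese groups of the study had 10 rats, of which 3 were sequenced.

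Nitric oxide binds the reduced heme of sGC, and the enzyme then makes cyclic GMP, which relaxes vascular smooth muscle and restrains fibroblast activation. An sGC stimulator acts on the enzyme with its reduced heme and increases its response to nitric oxide. An sGC activator acts on the enzyme whose heme is oxidized or lost, the form that gathers under oxidative stress. In the kidney the proximal tubule takes back most of the filtered glucose, salt and amino acids, the loop of Henle concentrates urine through its thin and thick limbs, and podocytes form the filtration barrier. Injured proximal tubule cells leave this transport program and can signal to stromal cells.

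The table names a cluster for every nucleus (25 clusters), which are joined into 8 high-level types. Names are those of the authors, and they were not checked against marker genes here because counts per gene were not analysed. Treated rats held 10488 to 23294 nuclei and 20288597 to 32830239 UMIs (unique molecular identifiers, 1 per captured transcript), with 10000 nuclei loaded per rat. Median UMIs per nucleus were 1149.5, 961 and 1760 in the sGCact rats RK43_4, RK45_4 and RK46_4, and 1659, 1613 and 989 in the sGCstim rats RK57_4, RK58_4 and RK61_4. RK43_4, RK45_4 and RK61_4 thus had the fewest UMIs per nucleus, and they held the most nuclei, 2.12, 2.16 and 2.33 times the number loaded. RK61_4 also stood apart from the rest of its group in mitochondrial percentage, with a median of 3.34% of UMIs against 0% in RK57_4 and 0.0492% in RK58_4. Between any pair of treated rats, 29 to 180 cell barcodes were shared, at most 0.833% of the smaller rat.

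No difference between the drugs in the mixture of cell types was detectable beyond the spread between rats. The 95% intervals reached 1.01 to 1.39 in log odds to either side of the estimates, so large differences were not excluded. Of the 11 types at the finer level, 8 had a higher mean log odds under sGCact and 3 a lower one, and none passed an adjusted p of 0.05 (limma on log odds of shares over 12 rats, 0.0% of types called, 0 at an unadjusted p under 0.05 by limma and none called by edgeR). The ranges of the 3 sGCact and 3 sGCstim rats overlapped for all 11 (0.0% did not). The proximal tubule, the most abundant type, made up 56.9%, 69.9% and 32.6% of nuclei under sGCact and 52.0%, 44.7% and 70.6% under sGCstim. Each group thus held rats from both ends of the range. The log odds difference, here and throughout sGCact minus sGCstim, was -0.12 (95% interval -1.44 to 1.21, adjusted p = 0.948 from limma). Since shares add up to 100% in a rat, a rat rich in proximal tubule nuclei has smaller shares of the rest.

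Podocytes were 1.19%, 0.685% and 2.43% of nuclei under sGCact and 1.08%, 1.10% and 0.884% under sGCstim. The sGCact rats lay on both sides of the sGCstim rats. Their log odds difference was 0.21 (95% interval -0.97 to 1.40, adjusted p = 0.948 from limma), and without RK46_4 it was -0.12. Immune cells had means of 1.47% ± 0.339 (SD, n = 3) and 1.94% ± 0.438 (SD, n = 3), the lower under sGCact in 8 of 9 pairs of rats, with a log odds difference of -0.28 (95% interval -1.33 to 0.77, adjusted p = 0.948 from limma). Stroma had means of 2.69% ± 0.363 (SD, n = 3) in sGCact and 2.50% ± 0.557 (SD, n = 3) in sGCstim rats. In the same order the means were 6.40% ± 2.34 (SD, n = 3) and 6.29% ± 1.95 (SD, n = 3) for endothelium. For the loop of Henle they were 7.36% ± 1.93 (SD, n = 3) and 10.1% ± 3.63 (SD, n = 3). In each, the difference of the means was within the spread between rats. Distal convoluted tubule, connecting tubule, principal and intercalated cells, which set the final salt, potassium and acid content of urine, had mean log odds 0.23 to 0.52 higher under sGCact in their 5 types, with intervals that all included 0. In each of these 5 types RK61_4, an sGCstim rat, had the lowest share of the treated rats, from 0.635% for DCT/CNT to 2.24% for DCT.

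Cell states were then compared within each type, as the share of a cluster in its own type, so that the share of proximal tubule nuclei in a rat drops out. In all, 23 clusters of 6 types could be compared, of which 10 had a higher and 13 a lower mean log odds under sGCact. None passed an adjusted p of 0.05 (0.0% called, lowest adjusted p = 0.823 from limma, 0 at an unadjusted p under 0.05 by limma and none called by edgeR). The sGCact and sGCstim rats did not overlap in 2 clusters, 8.7% of the 23. These were PTinj, the injured proximal tubule cluster, and GEC(Reln+), an endothelial cluster. The intervals were widest in the proximal tubule, where those of PST(S2), PST(Spp1+) and PTnov2 reached beyond 3 in log odds.

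**Figure D1:**
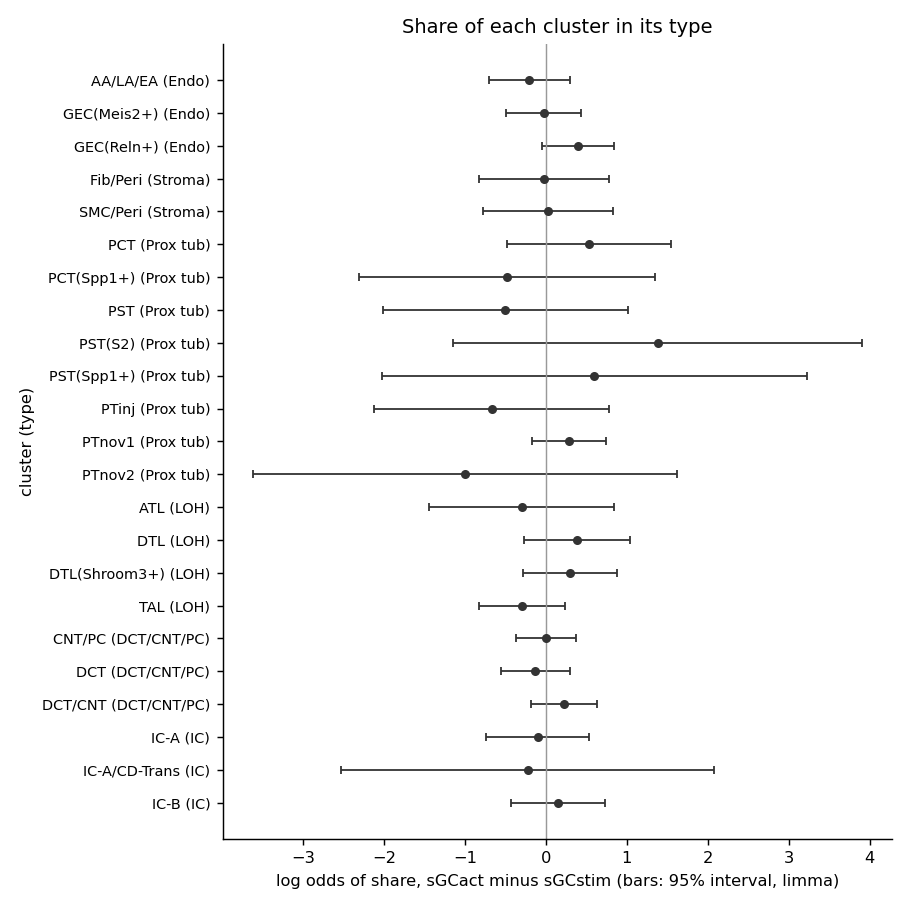
Difference in the log odds of each cluster's share of its type, sGCact minus sGCstim (horizontal axis), for the 23 clusters with their types (vertical axis). Points are limma estimates over 12 rats and bars 95% intervals, all of which include 0; the interval of GEC(Reln+) ends closest to it, at -0.05.

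PTinj took a smaller share of the proximal tubule under sGCact in every pair of rats. They made up 3.23%, 2.75% and 6.19% of proximal tubule nuclei in the sGCact rats and 8.52%, 6.56% and 6.66% in the sGCstim rats. RK46_4 lay closest to the sGCstim rats, just below RK58_4. Lean rats had 3.28% to 3.86% and vehicle rats 1.14% to 24.1%, so that the vehicle rats alone covered the range of all treated rats. Their log odds differed by -0.67 (95% interval -2.13 to 0.78, adjusted p = 0.835 from limma over 12 rats). The 6 treated rats alone gave an adjusted p = 0.611 from limma. A two-sided exact permutation test gave p = 0.1, the smallest that 3 rats against 3 allow. As a share of all nuclei, PTinj lay between 1.84% and 2.01% in sGCact rats and between 2.93% and 4.70% in sGCstim rats, the only 1 of 25 clusters whose groups did not overlap on that scale (4.0%). Among nuclei with at least 1000 UMIs the groups were also apart, with 6.07%, 4.65% and 5.46% of proximal tubule nuclei against 9.49%, 7.05% and 17.1%, a log odds difference of -0.73 (adjusted p = 0.426 from limma). This limit kept 58.3% to 84.1% of PTinj nuclei in sGCact rats and 88.5% to 97.6% in sGCstim rats. In RK61_4, the rat at 17.1%, it dropped 6538 of 6905 PST(Spp1+) nuclei from the denominator. These filtered shares are therefore no separate evidence.

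The other states of the proximal tubule differed more between rats of a drug than between drugs. PST(S2), the second segment of the straight tubule, made up 16.0%, 13.1% and 35.5% of proximal tubule nuclei under sGCact and 14.2%, 27.3% and 0.402% under sGCstim. The low sGCstim value was that of RK61_4 and the high sGCact value that of RK46_4. In log odds the difference was 1.38 (95% interval -1.15 to 3.90, adjusted p = 0.823 from limma), and without RK61_4 it was 0.01. PST(Spp1+), straight tubule nuclei with the osteopontin gene Spp1 in their name, made up 24.2%, 20.1% and 3.67% under sGCact and 1.04%, 6.23% and 42.0% under sGCstim. Here RK43_4, RK45_4 and RK61_4, a mixture of both groups, were the 3 high rats, and RK61_4 gave 94.4% of the sGCstim nuclei of the cluster. In log odds the difference was 0.60 (95% interval -2.02 to 3.22, adjusted p = 0.840 from limma), 1.70 without RK61_4 and -0.41 without RK57_4.

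Nuclei of PST(Spp1+) in these 3 rats held few UMIs and many mitochondrial ones. Their medians were 718, 703 and 832 UMIs in RK43_4, RK45_4 and RK61_4, with 4.83%, 3.00% and 5.53% mitochondrial UMIs. In RK46_4, RK57_4 and RK58_4 the medians were 854, 1409 and 900 UMIs and 1.18%, 0% and 0.304%. Vehicle rats, with 625 to 950.5 UMIs, were also low. Among nuclei with at least 1000 UMIs the sign of the difference turned, to -1.39 in log odds (adjusted p = 0.426 from limma). The part of low-quality nuclei in the size of this cluster was not tested.

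PCT, the convoluted proximal tubule, made up 31.2%, 25.6% and 23.3% under sGCact and 18.7%, 31.2% and 8.34% under sGCstim. RK61_4 was again the low rat. In log odds the difference was 0.54 (95% interval -0.47 to 1.55, adjusted p = 0.823 from limma), with 0.11 without RK61_4 and 0.92 without RK58_4. PTnov2, a proximal tubule cluster of mainly lean rats, had 3 nuclei under sGCact and 29 under sGCstim, 27 of them in RK57_4, and 0 in the vehicle rats. In lean rats it made up 2.48% to 4.89% of proximal tubule nuclei. Its log odds difference of -0.995 (95% interval -3.61 to 1.62, adjusted p = 0.835 from limma) became 0.20 without RK57_4. The other 3 clusters, PST, PCT(Spp1+) and PTnov1, overlapped between the drugs, with log odds differences of -0.50, -0.48 and 0.28.

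**Figure D2:**
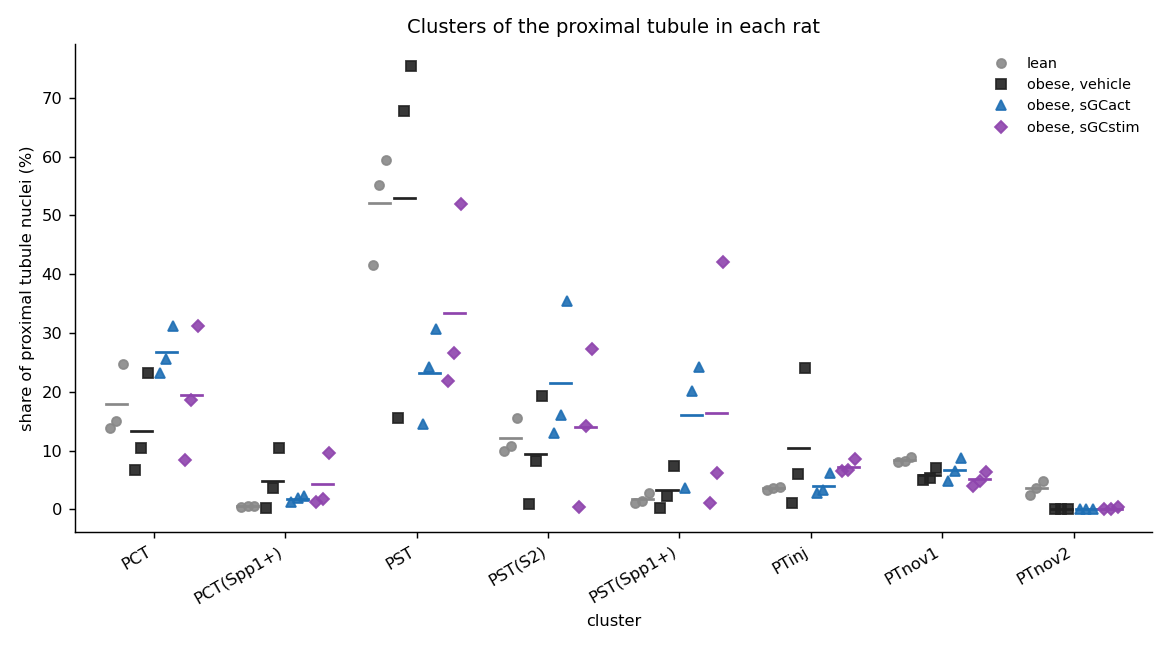
Share of proximal tubule nuclei (vertical axis, %) in each of 8 proximal tubule clusters (horizontal axis) for 12 rats; points are rats, horizontal lines group means. PTinj is the only one of these clusters in which the sGCact rats, at 2.75% to 6.19%, lie wholly below the sGCstim rats, at 6.56% to 8.52%, and PST(Spp1+) has 1 sGCstim rat at 42.0%.

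In the endothelium, GEC(Reln+) was larger under sGCact in every pair of rats, at 4.50%, 4.60% and 4.34% of endothelial nuclei against 2.43%, 3.77% and 3.05%. The sGCact rats lay close together. These shares rest on 40 to 60 nuclei per sGCact rat and 21 to 36 per sGCstim rat. Lean rats had 1.04% to 2.15% and vehicle rats 3.13% to 3.43%. The log odds difference was 0.40 (95% interval -0.05 to 0.84, adjusted p = 0.823 from limma), with p = 0.1 from the exact permutation test, and it ran from 0.29 to 0.51 with each rat left out in turn. Over all 24 alternatives it ran from 0.0374 to 0.521, and none was called. Among nuclei with at least 1000 UMIs, and among those with at most 1% mitochondrial UMIs, the groups overlapped, with RK46_4 below RK58_4. AA/LA/EA and GEC(Meis2+), the other endothelial clusters, had log odds differences of -0.21 (95% interval -0.71 to 0.29) and -0.03 (95% interval -0.49 to 0.44).

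Stroma, which includes the vascular smooth muscle and fibroblasts in which cyclic GMP is known to act, showed no detectable difference in its split. Fib/Peri, fibroblasts and pericytes, made up 90.1%, 83.2% and 84.6% of stroma under sGCact and 83.1%, 85.8% and 90.0% under sGCstim. SMC/Peri, smooth muscle cells and pericytes, is the rest, with 9.92%, 16.8% and 15.4% against 16.9%, 14.2% and 10.0%. Each group had 1 rat near 10% and a pair between 14.2% and 16.9%. The log odds difference of SMC/Peri was 0.02 (95% interval -0.78 to 0.83, adjusted p = 0.989 from limma), and differences as large as these bounds were not detectable with 3 rats a side. Within the distal tubule and the intercalated cells, log odds differences ran from -0.22 for IC-A/CD-Trans to 0.22 for DCT/CNT. That of IC-A/CD-Trans rested on as few as 1 nucleus, in RK61_4, and its 95% interval was -2.53 to 2.08, while that of DCT/CNT was -0.18 to 0.63.

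In the loop of Henle the 4 clusters also overlapped between the drugs in their shares. ATL and DTL are read here as the ascending and descending thin limbs and TAL as the thick ascending limb, which pumps salt out of the tubule. ATL made up 2.97%, 2.51% and 0.701% of loop nuclei under sGCact and 1.35%, 2.22% and 4.45% under sGCstim, a log odds difference of -0.30 (95% interval -1.45 to 0.84, adjusted p = 0.835 from limma). DTL made up 5.61%, 8.35% and 3.50% against 3.38%, 3.60% and 4.55%, a difference of 0.38 (95% interval -0.28 to 1.04, adjusted p = 0.823 from limma), with 0.16 without RK45_4 and 0.61 without RK46_4.

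The quality of ATL nuclei, in contrast, was far apart between the drugs. DTL was less clearly apart, since RK58_4 of the sGCstim group lay near the sGCact rats. At most 1% mitochondrial UMIs were held by 26.9% of DTL nuclei in RK58_4 and 26.7% in RK46_4. The quality of DTL(Shroom3+), the other cluster named for the descending thin limb, overlapped. DTL(Shroom3+) nuclei had medians of 867, 771 and 1458 UMIs under sGCact and 1065, 1568 and 1382.5 under sGCstim, and 41.2%, 40.7% and 75.9% of them against 56.1%, 85.0% and 76.6% held at least 1000 UMIs (log odds difference -0.91, 95% interval -3.71 to 1.89, adjusted p = 0.832 from limma). Median UMIs per ATL nucleus were 719, 694.5 and 833.5 under sGCact and 1736, 1851.5 and 1907.5 under sGCstim. Every sGCstim rat was above every sGCact rat, and lean rats (1474 to 2890) and vehicle rats (1349 to 2285) were also above every sGCact rat. On the log2 scale the difference was -1.29 (95% interval -1.91 to -0.67), that is 2.45-fold more UMIs under sGCstim, and passed the test (adjusted p = 0.00183 from limma over 23 clusters, 4.35% called). This fit needed at least 5 nuclei of a cluster in every treated rat, a limit chosen after the values were seen, since RK46_4 had 6 ATL nuclei and the limit of 10 first used leaves ATL out. With that limit of 10 none of 22 clusters was called (0.0%, 1 at an unadjusted p under 0.05 by limma).

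Nuclei of ATL with at least 1000 UMIs were nearly absent under sGCact. They numbered 3 of 55, 3 of 28 and 2 of 6 in RK43_4, RK45_4 and RK46_4, with exact Clopper-Pearson 95% intervals of 1.14% to 15.1%, 2.27% to 28.2% and 4.33% to 77.7% that cover counting error only. Under sGCstim they numbered 19 of 20, 15 of 16 and 127 of 128. Lean rats had 90.4% to 100% and vehicle rats 86.8% to 100% of such nuclei, so that the sGCact rats stood below the other 9 rats. DTL gave a similar picture, with 2 of 104, 0 of 93 and 1 of 30 nuclei under sGCact, where 0 of 93 allows a share of up to 3.23% by a limit of 3 counts and has an exact Clopper-Pearson upper bound of 3.89%. Under sGCstim DTL had 40 of 50, 7 of 26 and 124 of 131 such nuclei. RK58_4 was the lowest of these at 26.9%, close to the vehicle rats at 23.4% to 31.2%, and lean rats had 92.4% to 100%.

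The share of nuclei with at least 1000 UMIs was tested for 23 clusters, a measure added after the values were seen. ATL and DTL were the clusters called (8.7%, limma), with log odds differences of -4.87 (95% interval -7.67 to -2.08) and -5.04 (95% interval -7.84 to -2.25), both with adjusted p = 0.00832. Neither was called when RK43_4, RK45_4 or RK61_4 was left out (adjusted p = 0.0539 to 0.107 from limma), though both kept their sign. Limits of 700 and 1500 UMIs were also tried, and each cluster was called at only 1 of them. Where DTL was not called, its adjusted p was 0.321 from limma. The groups did not overlap in 3 of the 23 clusters (13.0%), which were ATL, DTL and PTinj. PTinj had 84.1%, 58.3% and 76.8% of such nuclei under sGCact and 88.5%, 96.7% and 97.6% under sGCstim, a log odds difference of -1.96 (95% interval -4.76 to 0.84, adjusted p = 0.647 from limma).

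**Figure D3:**
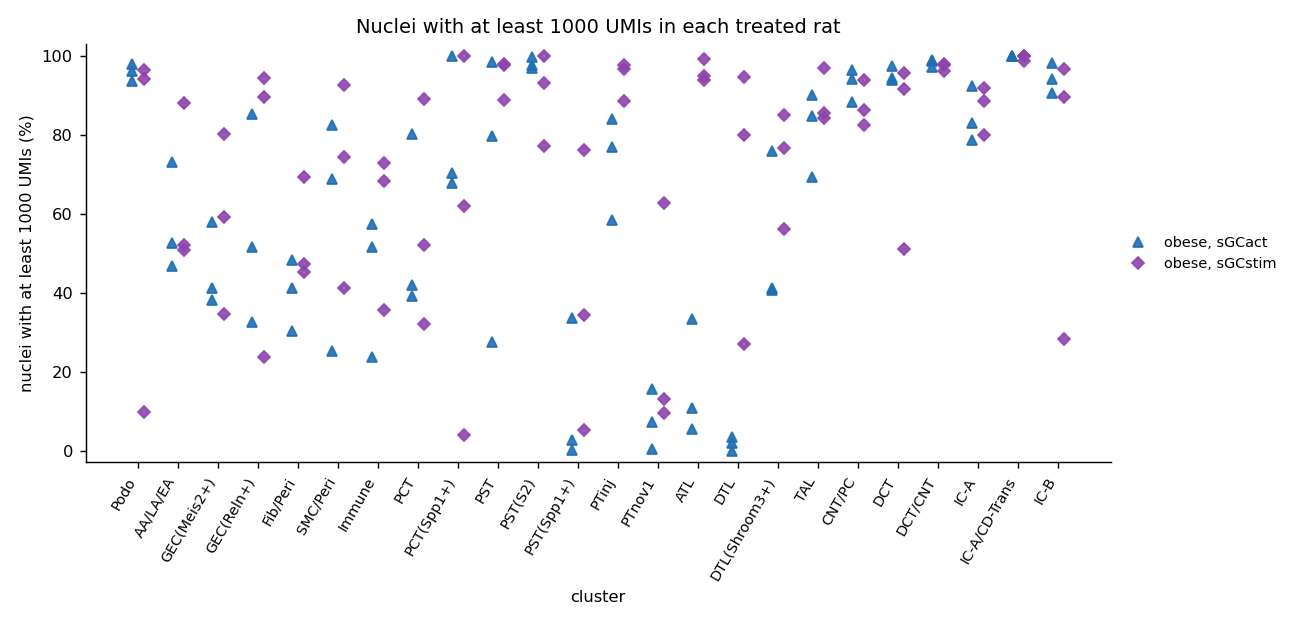
Nuclei with at least 1000 UMIs (vertical axis, %) in each cluster with nuclei in all 6 treated rats (horizontal axis), for the 3 sGCact (triangles) and 3 sGCstim rats (diamonds). ATL is at 5.45% to 33.3% against 93.8% to 99.2%, DTL at 0% to 3.33% against 26.9% to 94.7%, and most other clusters overlap.

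Depth over all nuclei of a rat moved with ATL depth in 4 of the 6 treated rats, with RK43_4 and RK45_4 low in both and RK57_4 and RK58_4 high in both. RK46_4 had the most UMIs per nucleus of the 6 treated rats and few in its ATL nuclei, while RK61_4, at 989 UMIs over all its nuclei, had 1907.5 in its ATL nuclei. The part of whole-rat depth in the difference was not tested. The thick limb of the same rats overlapped, with median UMIs of 1547, 1756.5 and 1619 per TAL nucleus under sGCact and 1477, 1458.5 and 1830 under sGCstim. Divided by the TAL median of the same rat, the ATL median was 0.465, 0.395 and 0.515 under sGCact and 1.18, 1.27 and 1.04 under sGCstim (p = 0.1 by an exact permutation test, the smallest possible). It was 0.872 to 0.974 in lean and 1.02 to 1.16 in vehicle rats. For DTL the ratio was 0.441, 0.396 and 0.472 under sGCact and 1.01, 0.531 and 0.832 under sGCstim, with 0.451 to 0.646 in vehicle and 0.863 to 0.885 in lean rats. Thus ATL separated the sGCact rats from the other 9 rats, while the DTL ratios of the vehicle rats overlapped those of the sGCact rats.

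Mitochondrial UMIs moved with the low depth. In ATL their median share was 4.08%, 2.73% and 0.965% under sGCact and 0%, 0.0176% and 0.103% under sGCstim, with at most 0.386% in the 6 lean and vehicle rats. On the scale log2(percentage + 0.1) the difference was 4.12 (95% interval 2.49 to 5.76, adjusted p = 0.00324 from limma over 23 clusters, 4.35% called). The share of nuclei with at most 1% mitochondrial UMIs, also added after the values were seen, called ATL alone of 23 clusters (4.35%), with a log odds difference of -4.81 (95% interval -7.38 to -2.25, adjusted p = 0.0266 from limma), and none with the 6 treated rats alone (adjusted p = 0.123 for ATL). For that share ATL, DTL and PTinj were the clusters whose groups did not overlap (13.0%). In DTL the gap was narrow, with 8 of 30 nuclei (26.7%) in RK46_4 and 7 of 26 (26.9%) in RK58_4. Vehicle rats had 15.6% to 56.25% in DTL. Genes per ATL nucleus followed, at -0.89 on the log2 scale (95% interval -1.40 to -0.39, adjusted p = 0.0150 from limma, 4.35% called). In all, 79 of the 89 ATL nuclei of the sGCact group held under 1000 UMIs and over 1% mitochondrial UMIs, against 1 of 164 in the sGCstim group. For DTL these were 214 of 227 and 27 of 207, and for TAL 486 of 2871 and 76 of 4010. DTL medians of mitochondrial UMIs were 4.37%, 2.48% and 2.02% under sGCact and 0%, 1.92% and 0.415% under sGCstim, which did not pass (2.63 on the same log2 scale, adjusted p = 0.690 from limma over 22 clusters, 0.0% called). The ranges of the groups did not overlap in ATL and DTL for median mitochondrial percentage (8.7% of 23 clusters), in 7 clusters for median UMIs (30.4%) and in 4 for median genes (17.4%). What these thin limb nuclei are was not tested.

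**Figure D4:**
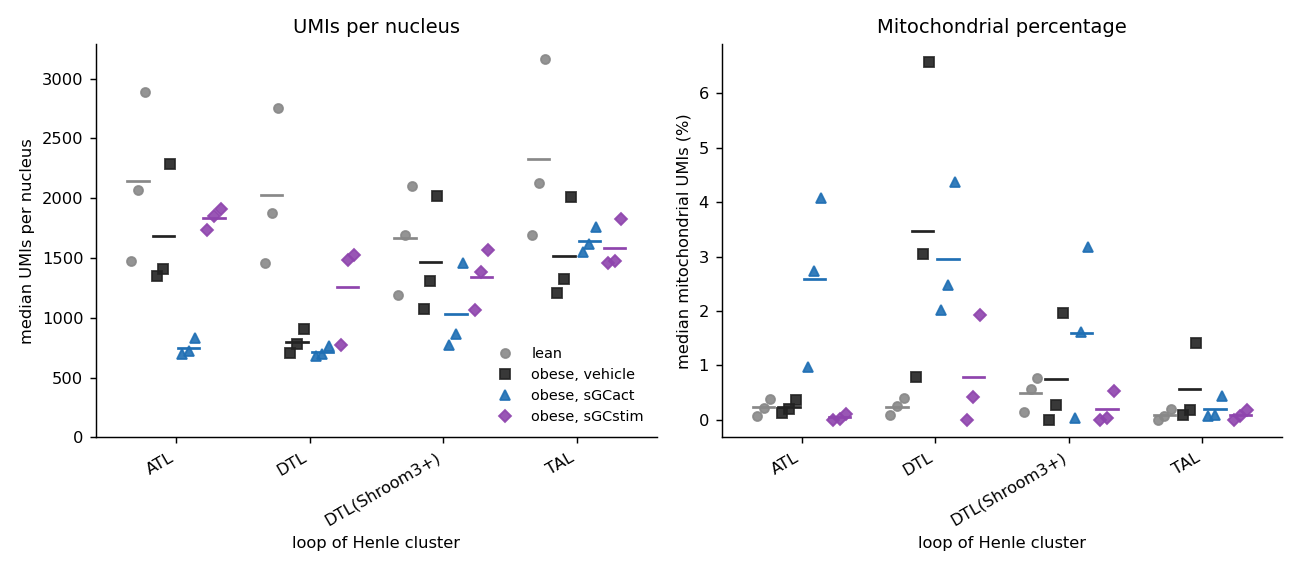
Median UMIs per nucleus (left, vertical axis) and median mitochondrial UMIs in percent (right, vertical axis) of the 4 loop of Henle clusters (horizontal axis) for 12 rats; points are rats, horizontal lines group means. ATL of the sGCact rats lies at 694.5 to 833.5 UMIs, below all other rats, while TAL overlaps between the groups.

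A depth limit therefore changed which clusters of the loop were called. These shares restate the depth difference and are no separate evidence, since 8 of 89 ATL and 3 of 227 DTL nuclei pass the limit under sGCact against 161 of 164 and 171 of 207 under sGCstim. Among loop nuclei with at least 1000 UMIs, ATL made up 0.273%, 0.375% and 0.292% under sGCact and 1.55%, 2.52% and 4.71% under sGCstim. DTL made up 0.182%, 0% and 0.146% against 3.26%, 1.18% and 4.60%, where 0 of 800 nuclei in RK45_4 allows up to 0.375% by a limit of 3 counts, with an exact Clopper-Pearson upper bound of 0.460%. Every sGCact rat was below every sGCstim rat in both clusters. The log odds differences were -2.01 (95% interval -2.96 to -1.07, adjusted p = 0.00805 from limma) for ATL and -2.94 (95% interval -3.90 to -1.98, adjusted p = 0.000846 from limma) for DTL, the 2 clusters called of 23 (8.7%). With nuclei of at most 1% mitochondrial UMIs both were called as well (8.7%), at -1.86 and -1.82 with adjusted p = 0.0405 from limma for each, but neither with the 6 treated rats alone (adjusted p = 0.0687 and 0.286 from limma). Leaving out 1 rat kept 2 calls only without RK58_4, left 1 call without RK3_4 or RK46_4, and left 0 without any 1 of the other 9 rats.

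Other measures of nuclei did not separate the drugs after adjustment when all nuclei and all rats were used. Over whole rats, p values from exact permutation tests of 7 measures (median UMIs, genes and mitochondrial percentage, mean S and G2M scores, and the shares of S and G2M calls) ran from 0.2 to 0.9, and adjusted ones from 0.7 to 0.9. The S and G2M scores are the authors' scores for genes of DNA synthesis and mitosis, which can be below 0. All were close to 0 here, and no cycling is read from them. The mean S score was higher in 18 and the mean G2M score in 19 of 22 clusters under sGCstim, and none was called (0.0% for each, with 2 and 4 at an unadjusted p under 0.05 by limma). PTinj had mean G2M scores of -0.0094, -0.0046 and -0.0033 under sGCact and 0.0038, 0.0031 and 0.0014 under sGCstim. The groups lay on either side of 0, as they did for no other cluster but PCT, whose scores ran from -0.0023 to -0.0008 and from 0.0023 to 0.0050. Lean rats had -0.0069 to -0.0039 and vehicle rats 0.0013 to 0.0158 in PTinj. The difference of -0.0085 had an adjusted p = 0.210 from limma. In nuclei with 1000 to 2000 UMIs it was -0.0119, with an adjusted p = 0.0400 from limma. PTinj was the only cluster called in that setting. Of 17 alternatives for its G2M score, the other 16 were not called (adjusted p up to 0.532 from limma). Groups did not overlap in 5 of 23 clusters for each score (21.7%).

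Rats were also compared over all 25 clusters at once, and with all nuclei no greater likeness within a drug was detectable. On centred log-ratios of the cluster shares, the mean distance was 5.05 between rats on different drugs and 5.42 between rats on the same drug (exact one-sided permutation test, p = 0.6). The direction turned among nuclei with at least 1000 UMIs (6.45 between and 5.21 within) and among those with at most 1% mitochondrial UMIs (6.14 and 5.45). Each exact permutation test gave p = 0.1, the smallest that 3 rats against 3 allow. Both limits drop most ATL and DTL nuclei of the sGCact rats and fewer of the sGCstim rats. They also drop nuclei of other clusters unevenly between rats. At 1000 UMIs, 6538 of 6905 PST(Spp1+) nuclei of RK61_4 were dropped, against 16 of 67 in RK57_4. The part of each cluster in the turned direction was not tested. These filtered distances are therefore no separate evidence of a difference between the drugs. RK43_4 and RK45_4 were each other's nearest rats, at a distance of 1.92, and the nearest rat to RK46_4 was RK58_4 of the sGCstim group, at 1.95. RK57_4 was nearest to a lean rat, at 3.19. The nearest rat to RK61_4 was RK45_4 of the sGCact group, at 5.60, the largest such distance among the treated rats. RK9_4, a vehicle rat, was farther still from its nearest, at 5.83. Distances to the mean of the lean rats were 6.93 ± 0.902 (SD, n = 3) for sGCact rats and 6.38 ± 3.01 (SD, n = 3) for sGCstim rats, and those to the mean of the vehicle rats 4.07 ± 1.16 (SD, n = 3) and 4.97 ± 0.303 (SD, n = 3). Both differences were within the spread between rats, with p = 0.8 and p = 0.4 in exact permutation tests on 2 sides.

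**Figure D5:**
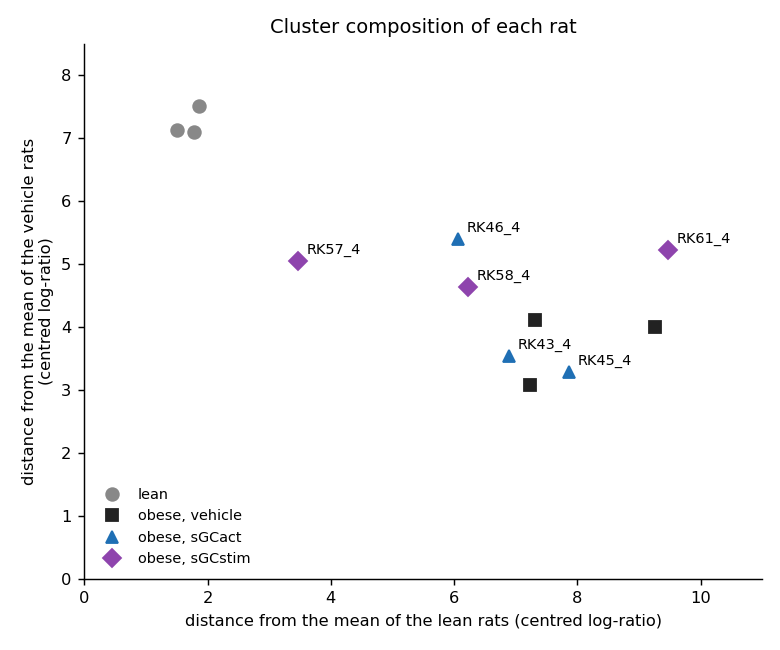
Distance of each rat's cluster composition from the mean of the lean rats (horizontal axis) and of the vehicle rats (vertical axis), on centred log-ratios over 25 clusters; each point is 1 rat and treated rats are named. The sGCstim rats span 3.46 to 9.47 on the horizontal axis and the sGCact rats 6.06 to 7.86.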

How the data were processed

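Nuclei of frozen kidney were sequenced by a droplet method with UMIs. The authors aligned reads with Cell Ranger to rn6 with introns included (version 6 in the submitters' processing notes, while the paper names another), then used Seurat. Ambient RNA was corrected, doublets were called and dropped, and a nucleus was kept with 200 to 3000 genes and at most 15% mitochondrial UMIs, before Harmony batch correction and clustering. UMIs and genes per nucleus are deposited as counts without normalization, mitochondrial UMIs as a percent, and phase and map coordinates as scores by the authors; cluster names are deposited as text. The table gives each nucleus its rat and group, but not which sample entry a rat is, so rats are named as in the table; 0 columns of sample values were left out. Counts per gene were not analysed here, so nuclei could not be thinned to 1 depth. The 47 treated nuclei whose type disagreed with that of their cluster were left out of shares within types.

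The rat was the replicate. Log odds of shares (0.5 nuclei added, 1 to the total) and log2 medians (mitochondrial percentage + 0.1) went into limma 3.58.1 (R 4.3.3) over 4 groups of 3 rats, with Benjamini-Hochberg adjustment at 0.05 and at least 10 nuclei of a cluster in every treated rat for quality. Single values had exact permutation tests. edgeR 4.0.16, pandas 2.3.3, numpy 2.4.6 and scipy 1.17.1 were also used. Fits were tested on simulated data, and other filters, scalings, tests and each rat left out were tried as alternatives. Treated rats had 10488 to 23294 nuclei. Per-rat values are given for clusters past the threshold or without overlap, podocytes, stroma, PTinj and the 5 largest changes within types. ATL and DTL as a topic, and UMIs of distal clusters, were chosen after their values were seen. Members and lists were chosen with earlier results of these data known.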

Additional observations from a re-analysis of the deposited data

Results flagged for a closer look

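ATL, the ascending thin limb, was left out of the first quality fits because 1 rat had under 10 of its nuclei, and its nuclei under sGCact lay outside the range of all 6 lean and vehicle rats. The share of ATL nuclei under 1000 UMIs was 94.55% in RK43_4, 89.29% in RK45_4 and 66.67% in RK46_4, against 0% to 13.2% in the lean and vehicle rats. The share over 1% mitochondrial UMIs was 94.55% in RK43_4, 89.29% in RK45_4 and 50% in RK46_4, against 1.75% to 36.8%. The value of RK46_4 rests on 6 nuclei.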

How the results depend on the processing

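No paired analysis was possible because the table ties rats to no replicate numbers. Of 665 alternative values, 580 were labelled unchanged, a label that differed in meaning between results. For single clusters and types it meant the same direction and the same side of the threshold. For counts of calls it meant a similar count, which has no direction. Whole-rat and distance results had exact tests that cannot reach the threshold, so only their direction could change. The total is therefore no single measure of stability. The count of clusters called within types was 0 throughout except 2 with at least 1000 UMIs and 2 with at most 1% mitochondrial UMIs. For quality, at least 5 nuclei gave 1 call each for mitochondrial percentage, UMIs and genes. G2M scores had 1 call at 1000 to 2000 UMIs, and S scores 0 to 1 with a rat left out (PTinj without RK61_4). Calls on nuclei with at least 1000 UMIs were 1 with at least 20 nuclei, 1 at 700 UMIs, 1 at 1500 UMIs and 0 to 2 with a rat left out. Calls on nuclei with at most 1% mitochondrial UMIs were 0 with the 6 treated rats alone, 0 with at least 20 nuclei and 0 to 2 with a rat left out. Within-type calls among nuclei with at most 1% mitochondrial UMIs were 0 with the 6 treated rats alone and 0 to 2 with a rat left out, 2 of them only without RK58_4.

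Signs turned as follows, and the cause was not tested. Fib/Peri was 0.0594 with rats thinned, 0.0813 with all nuclei as denominator and -0.208 to 0.143 with a rat left out; SMC/Peri was -0.0594 thinned, -0.108 with edgeR TMM and -0.143 to 0.208 with a rat left out. PST(Spp1+) was -0.0256 and -0.398 with edgeR without and with TMM, -1.39 with at least 1000 UMIs, -0.709 with at most 1% mitochondrial UMIs and -0.411 to 1.70 with a rat left out. PTnov2 was 0.211 with at least 1000 UMIs and -2.27 to 0.204 with a rat left out. PCT (0.113 to 0.917) and DTL (0.159 to 0.613) kept their sign with a rat left out. With a rat left out ATL ran from -0.587 to 0.136 and podocytes from -0.121 to 0.520. DTL was -2.94 with at least 1000 UMIs and -1.82 with at most 1% mitochondrial UMIs. Median UMIs differed by 99.65 with types weighted equally, 136.2 without proximal tubule and -365.1 to 34.42 with a rat left out; median genes by 9.333, 54.67 and -169.7 to 44.33. With a rat left out median mitochondrial percentage ran from -1.208 to 0.4619 and G2M calls from -4.06 to 0.7644 percentage points. The distance between drugs minus within was 1.239 with at least 1000 UMIs, 0.6912 with at most 1% mitochondrial UMIs and -1.39 to 0.758 with a rat left out. The distance to lean was -0.04256 over types and -0.9062 to 2.096 with a rat left out; that to vehicle was 0.04642 by arcsine, 1.042 with at least 1000 UMIs and 0.02467 with at most 1% mitochondrial UMIs. With 3 rats a side no exact test can reach 0.05, and small clusters such as ATL in RK46_4 limit the rest.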

Other observations

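In podocytes and some distal clusters, UMIs per nucleus lay the other way round from the thin limbs, a set singled out after its values were seen. The medians of TAL and IC-A overlapped between the drugs. Median UMIs did not overlap between the drugs in 7 of 23 clusters (30.4%), and 5 of these, podocytes, DCT, DCT/CNT, CNT/PC and IC-B, were higher in every sGCact rat. DCT nuclei had 2298.5, 2132 and 2041 UMIs under sGCact and 2021, 1841 and 1030 under sGCstim, and IC-B nuclei, the base-secreting intercalated cells, had 2170.5, 2098 and 1991 against 1899, 1936 and 852.5. RK61_4 was the low rat in both. CNT/PC nuclei had 2019.5, 1756 and 1650 against 1466, 1541 and 1531. None of the 5 passed the test (log2 differences of 0.19 to 0.69, 0 called of 22 by limma, and 1 other cluster, DTL, at an unadjusted p under 0.05).

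In podocytes RK61_4 had a median of 842 UMIs and 4.73% mitochondrial UMIs, against 2606 and 2554 UMIs and 0% in the other sGCstim rats and 2654 to 3201 UMIs under sGCact. Its IC-B nuclei had 4.45% mitochondrial UMIs, against 0% in both other sGCstim rats.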
